A study of Homo sapiens with 24 samples.

Results

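LRBA is a human gene on the minus strand of chromosome 4 whose transcript and circular RNA were followed here through 4 count tables, which hold exon counts, intron counts, back-splice counts and linear counts at the same splice sites. Its members were all rows named LRBA, which came to 1 of 60308 genes in the exon table, 1 of 37473 genes in the intron table, and 1 of 394 sites in the back-splice table and in the matching linear table. The gene was chosen by its measured values, since the circular RNA was higher in the insoluble than in the soluble cytoplasm together with its host transcript, so every comparison of LRBA between the 2 fractions is given as a description with no test, and LRBA was tested only between treatments and for a change of the fraction effect with treatment.

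The cells were U2OS, an established human osteosarcoma line. In the Ctrl group they received 0.12% DMSO for 2 h. In the NaAsO2 group they received 500 µM sodium arsenite, an oxidative stressor, for 60 min. RK-33 cells were given 6 µM of an inhibitor of the RNA helicase DDX3, with a pretreatment of 1 h, and Combo cells received RK-33 followed by NaAsO2 at those doses. Each lysate was freed of nuclei and split by centrifugation into a soluble supernatant and an insoluble pellet enriched in ribonucleoprotein (RNP) granules, so the pellet is a crude fraction and not a purified granule. Ribosomal RNA was depleted before sequencing. With 3 replicates of each treatment and fraction there were 24 libraries in 8 groups, and the study's methods describe the replicates as repeats of the experiment.

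LRBA encodes a very large scaffold protein of vesicle trafficking, named for its response to lipopolysaccharide and for the BEACH domain that lies near its C-terminal end beside WD40 repeats. It is best known in T cells, where it keeps the checkpoint receptor CTLA4 from being degraded in lysosomes, and its loss causes an inherited immune deficiency with autoimmunity. A circular RNA (circRNA) forms when the spliceosome joins the end of an exon to the start of an upstream exon, a reaction called back-splicing, and the product lacks the free ends on which exonucleases act. Stress granules are condensates of untranslated mRNA and RNA-binding proteins that form when translation initiation stops, as happens under arsenite, and long, poorly translated mRNAs are known to enter them readily.

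The back-splice joins the end of exon 55 to the start of exon 49 of the MANE transcript LRBA-219 (57 exons, 10148 bases), at chr4:150282450-150325898 on the minus strand of GRCh38. The 3 junctions below show what separates a circular from a linear read: each has 30 bases on either side of the joint, written 5′ to 3′, with the bases of the second exon in capitals. The first is the back-splice and the others are the linear joints that enter and leave the same exons.
LRBA back-splice, exon 55 to exon 49: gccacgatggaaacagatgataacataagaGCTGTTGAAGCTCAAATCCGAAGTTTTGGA
LRBA linear junction, exon 48 to exon 49: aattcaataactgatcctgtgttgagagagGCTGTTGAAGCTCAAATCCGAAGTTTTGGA
LRBA linear junction, exon 55 to exon 56: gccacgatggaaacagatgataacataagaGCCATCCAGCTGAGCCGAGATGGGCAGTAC

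The back-splice shares its capitals with the first linear junction and its lower-case bases with the second, so only reads crossing the joint tell the forms apart. The left side of the back-splice is chr4:150282450-150282479 and its right side is chr4:150325869-150325898. The intron ends that border the circle are shown next, since they hold the splice sites that a spliceosomal back-splice would use; capitals mark the last 2 bases of intron 48 (chr4:150325899-150325928) and the first 2 of intron 55 (chr4:150282420-150282449).
LRBA end of intron 48: aaccttcagacttgcccctgcccttttcAG
LRBA start of intron 55: GTgagtgccctggggactcttcagcattca

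Both ends carry the canonical AG and GT, and 389 of the 394 sites in the table (98.7%) were of the same junction type. The 7 exons between them, exons 49 to 55, have lengths of 90, 178, 63, 156, 168, 102 and 197 bases, which give a circle of 954 bases if no exon is skipped. All 954 are coding bases of the host, from codon 2455 to codon 2772 of 2852, and 954 is a multiple of 3 with 0 stop codons in the host reading frame. The circle thus takes 9.40% of the mRNA length from near its 3′ end, and its genomic span of 43449 bases is 5.78% of the gene (chr4:150264435-151015727, 751293 bases). The flanking introns measure 24093 bases upstream and 4445 bases downstream. Of 23 LRBA transcripts in the annotation, 11 hold both splice sites.

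**Figure D1:**
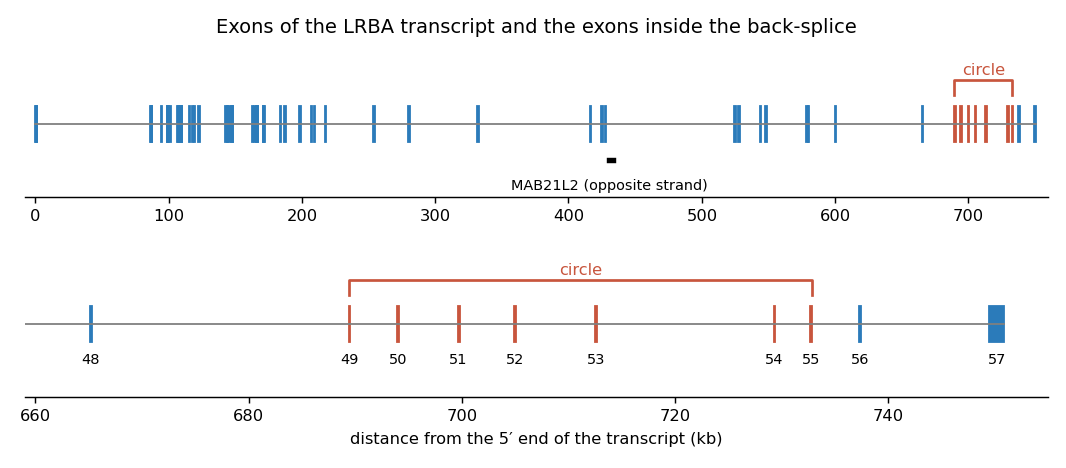
Map of LRBA in kilobases from its 5′ end, with the exons of the MANE transcript as boxes, the exons of the circle in red and the opposite-strand gene MAB21L2 marked. The lower panel enlarges exons 48 to 57, and a reader should see that the circle lies near the 3′ end of a gene of 751293 bases.

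The libraries held 10968059 to 19799530 exon plus intron counts, which served as library size for counts-per-million values (CPM). As markers of an osteosarcoma line, VIM, COL1A1, SPARC, RUNX2 and ALPL were counted in every library, whereas COL1A2, SP7 and BGLAP did not exceed 1.42 CPM, and 4 markers of blood, epithelial, liver and endothelial cells (PTPRC, EPCAM, ALB, CDH5) summed to 2.60 to 8.08 CPM. The library of NaAsO2 insoluble replicate 3 stood apart. Its RN7SL1 RNA took 5.79% of exon counts against 0.426% to 1.23% in the other 11 insoluble libraries and 7.51% to 15.5% in the soluble ones. It held 131 back-splice counts against 292 to 517 in the other insoluble libraries, and its counts leaned to GC-rich genes, with a log2 deviation from the mean of the insoluble libraries of -0.60 at 40% GC and 0.79 at 60% GC (LRBA exons have 42.9% GC). Results of the NaAsO2 insoluble group are therefore also given without it, and the part of these features in the results was not tested. Combo insoluble replicate 3 and RK-33 soluble replicate 3 also differed from their replicates, to a lesser degree. Over exon counts, the chi-square per degree of freedom against the other replicates was 25.5 and 32.1 for the first and 32.4 and 23.1 for the second. For NaAsO2 insoluble replicate 3 it was 142 and 130, and the median of all replicate pairs was 4.62.

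LRBA exon counts were several-fold higher in the insoluble than in the soluble fraction under every treatment. In Ctrl they were 36.03, 34.5 and 31.997 CPM in the soluble libraries and 147, 166 and 193 CPM in the insoluble libraries. In NaAsO2 they were 55.8, 52.0 and 44.7 CPM in soluble and 244, 270 and 98.8 CPM in insoluble libraries. The last of these values is from the library that stood apart, and it is the lowest of all insoluble libraries. In RK-33 they were 42.9, 41.8 and 27.4 CPM in soluble and 200.0, 174 and 199 CPM in insoluble libraries. In Combo they were 62.7, 69.0 and 52.8 CPM in soluble and 232, 233 and 216 CPM in insoluble libraries. The 2 fractions did not overlap. In bulk RNA, fewer cells that hold an RNA and less of that RNA per cell cannot be told apart, and CPM are shares of a library, not amounts per cell.

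Between libraries of the same replicate number, the exon level in insoluble was 4.97 ± 0.982 times that in soluble in Ctrl (SD, n = 3), 3.92 ± 1.54 times in NaAsO2, 5.36 ± 1.65 times in RK-33 and 3.72 ± 0.358 times in Combo. For NaAsO2 the 3 folds were 4.37, 5.18 and 2.21, the last with the library that stood apart. In the fit over all genes, which scales by trimmed mean of M-values (TMM), LRBA had a log2 fold change of insoluble over soluble of 2.64 in Ctrl, at rank 81 of 17666 genes, of 2.04 in NaAsO2 (rank 320, and 2.35 without that library), of 2.66 in RK-33 (rank 168) and of 2.02 in Combo (rank 107). For scale, 24.4% of genes were called higher and 26.6% lower in insoluble in Ctrl, 27.9% and 29.7% in NaAsO2, 29.2% and 30.4% in RK-33, and 24.1% and 28% in Combo. These contrasts chose the gene, so nothing is read from them.

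**Figure D2:**
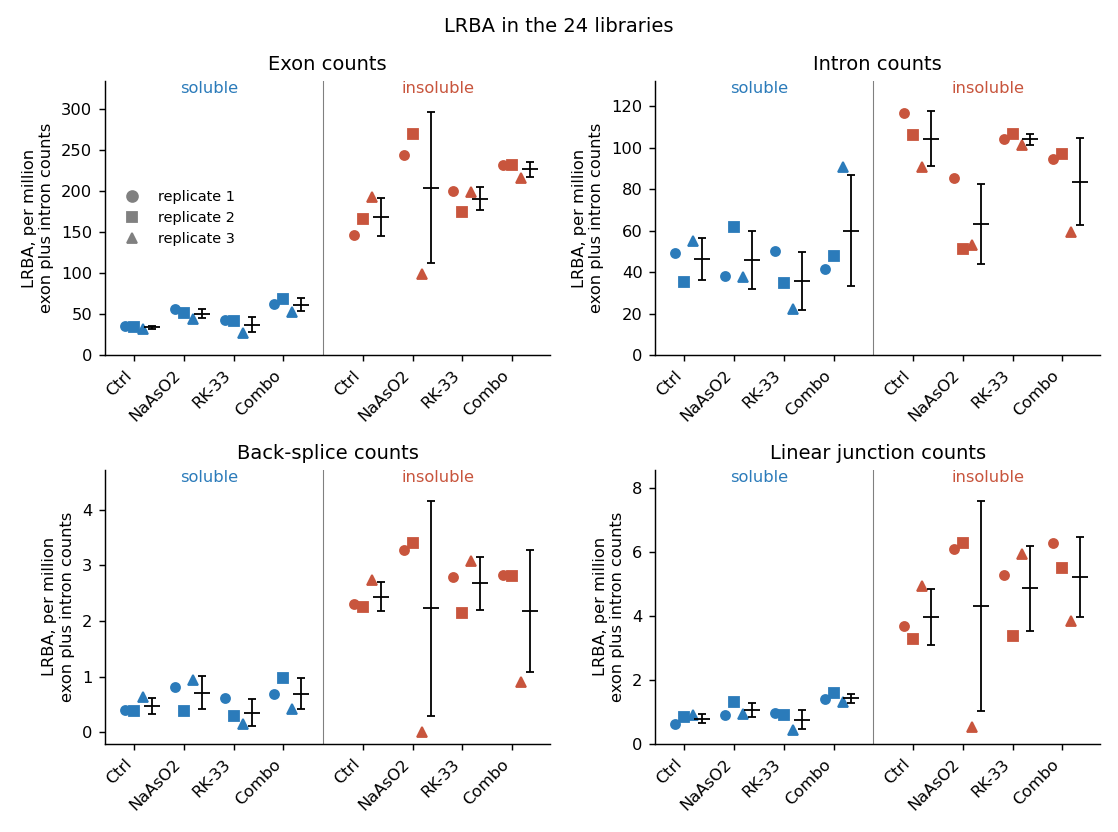
LRBA in each library in CPM of exon plus intron counts, in 4 panels (exon, intron, back-splice and linear counts), with 1 point per library, treatments along the x axis, fractions by colour, and black bars for mean ± SD (n = 3). The insoluble exon values of 98.8 to 270 CPM all lie above the soluble values of 27.4 to 69.0 CPM, and NaAsO2 insoluble replicate 3 holds the lowest insoluble value in the exon, back-splice and linear panels.

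The circular RNA followed the same course at lower counts. Back-splice counts in Ctrl were 5, 5 and 7 in the soluble and 32, 33 and 43 in the insoluble libraries. In NaAsO2 they were 9, 5 and 13 in soluble and 59, 59 and 0 in insoluble libraries. In RK-33 they were 9, 5 and 2 in soluble and 48, 35 and 45 in insoluble libraries. The 0 came from the library that stood apart, where it allows up to 0.225 CPM. In Combo the back-splice counts were 13, 13 and 6 in soluble and 52, 52 and 18 in insoluble libraries. Apart from the count of 0, every insoluble library held more LRBA back-splice reads than any soluble one. In CPM the fractions overlapped also through Combo insoluble replicate 3, at 0.909. Combo soluble replicate 2 (0.980) and NaAsO2 soluble replicate 3 (0.938) lay above it.

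Linear reads across the same splice sites showed the same order. In Ctrl they numbered 8, 11 and 10 in soluble and 51, 48 and 78 in insoluble libraries. In NaAsO2 they numbered 10, 17 and 13 in soluble and 110, 109 and 7 in insoluble libraries. In RK-33 they were 14, 15 and 6 against 91, 55 and 87. Again the 7 counts were the exception in insoluble. In Combo they were 26, 21 and 19 in soluble against 116, 102 and 76 in insoluble libraries. In CPM the insoluble level of the back-splice was 5.34 ± 0.896 times the soluble level in Ctrl, 4.29 ± 4.45 times in NaAsO2, 11.1 ± 9.10 times in RK-33 and 3.04 ± 0.940 times in Combo (SD, n = 3). The linear reads were 5.06 ± 1.04, 4.03 ± 3.15, 7.70 ± 5.37 and 3.64 ± 0.809 times as high, in that order. Without replicate 3 of NaAsO2 its mean folds were 6.43 for the back-splice and 5.76 for the linear reads (n = 2). The wide SD in RK-33 rests on soluble replicate 3, with 2 back-splice and 6 linear counts, whose folds were 21.4 and 13.8.

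Circular share, the part of all junction reads at the site that were back-splice reads, was close to level between fractions. It came to 92 of 262 counts in soluble, or 35.1% (95% Wilson interval 29.6% to 41.1%), and to 476 of 1406 in insoluble, or 33.9% (31.4% to 36.4%). Without the library that stood apart the insoluble share was 34.0%. The intervals cover counting error only, and no molecular identifiers are described for the reads.

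By group, the pooled share in soluble was 37.0% in Ctrl, 40.3% in NaAsO2, 31.4% in RK-33 and 32.7% in Combo. In insoluble it was 37.9% in Ctrl, 34.3% in NaAsO2, 35.5% in RK-33 and 29.3% in Combo. All 8 Wilson intervals overlap one another in part, which does not show that the shares were alike. Each interval pools the reads of 3 libraries and holds no spread between replicates. Differences of the share between groups were not tested. Among single libraries the lowest insoluble share after the 0 of 7 counts, whose interval reaches 35.4%, was 19.1% in Combo replicate 3 (12.5% to 28.3%). The insoluble share divided by the soluble share was 1.06 ± 0.225 in Ctrl, 0.761 ± 0.773 in NaAsO2, 1.27 ± 0.347 in RK-33 and 0.870 ± 0.0664 in Combo (SD, n = 3), and 1.14 in NaAsO2 without replicate 3 (n = 2). Set against exon counts in place of the linear junction counts, the circle gave 1.19 back-splice counts per 100 LRBA exon counts in soluble and 1.19 in insoluble libraries.

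**Figure D3:**
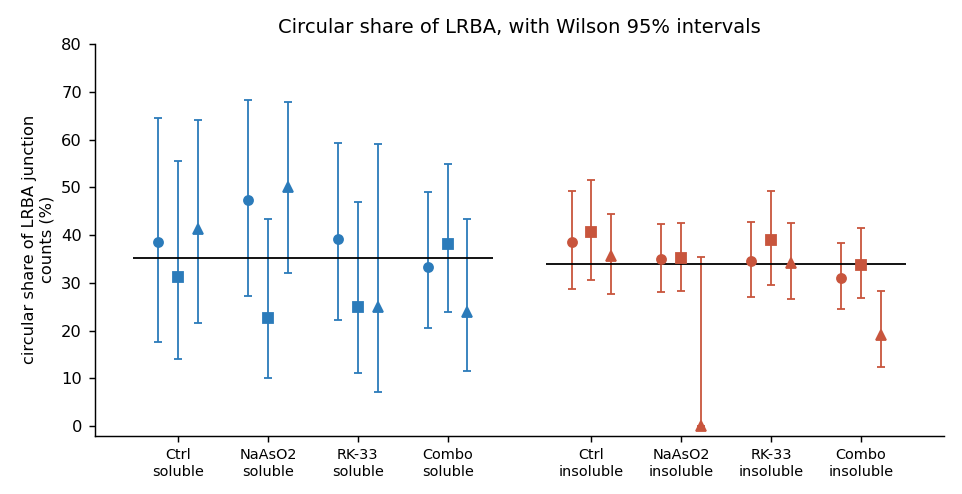
Circular share of LRBA in each library in percent, with treatments along the x axis in a soluble and an insoluble panel, marker shape by replicate and bars for the 95% Wilson interval. The black lines mark the pooled shares, 35.1% in soluble and 33.9% in insoluble, and most intervals cross them.

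Across libraries the circle and its host moved together, which is a description because the values share library and depth. Pearson's r between back-splice and linear reads, each as log2(CPM + 0.1), was 0.914 over 24 libraries and 0.933 over the 23 without NaAsO2 insoluble replicate 3. Between back-splice and exon counts on that scale it was 0.769 and 0.919. Much of this is the gap between fractions, since within the 12 soluble libraries r was 0.626 between back-splice and linear reads and 0.647 between back-splice and exon counts, and within the 12 insoluble libraries it was 0.954 and 0.784. These last values rest on 1 library, since without NaAsO2 insoluble replicate 3 they were 0.641 and 0.264.

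No other site of the table had as many back-splice reads. LRBA held 568 counts, rank 1 of 394, against a median of 27, although its 1100 linear counts ranked only 228 against a median of 1315. Of the 568 counts, 476 came from insoluble and 92 from soluble libraries, and LRBA was chosen for being higher in insoluble. Its circular share of 34.1% was rank 4 of the 237 sites with at least 24 back-splice counts, where the median was 3.00%. The site in LINC00632 came close, with 544 back-splice counts and a higher circular share of 51.2%. The site in CDYL had 373 counts and a share of 25.7%. In the soluble libraries LRBA made up 0.198% to 1.35% of all back-splice counts (median 0.815%), and in the insoluble ones 0% to 14.01% (median 11.1%), or 5.70% to 14.01% without the library that stood apart. The total of back-splice counts itself differed, with 731 to 1473 in soluble and 131 to 517 in insoluble libraries.

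Most circles lay on the other side. Of 236 sites with counts in both fractions, the mean back-splice CPM was lower in insoluble for 226 and higher for 10, with a median log2 ratio of insoluble to soluble of -2.19. The linear reads at those sites had a median log2 ratio of 0.17. LRBA had 2.09 for the back-splice (rank 3) and 2.19 for the linear reads (rank 4), or 2.21 and 2.30 without NaAsO2 insoluble replicate 3. The difference between both was -0.10 for LRBA, rank 12, where the median site had -2.24.

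Its neighbours in that order had far fewer counts. Above LRBA stood sites in AHNAK2 (log2 ratio 5.16, 44 counts) and AHNAK (4.54, 53 counts), genes of giant scaffold proteins built of repeated units. Reads from repeated units can be hard to assign, and their part at these sites was not tested. The linear reads at the sites had log2 ratios of 4.12 and 3.79. Below LRBA stood sites in ZNF91, a zinc finger gene (1.55, 27 counts), and in mitochondrial RNA without a gene name (1.14, 115 counts). The sites in AHNAK2 and AHNAK span 495 and 201 bases of the genome, against 43449 for LRBA. In 9 of the 236 sites, LRBA among them, both kinds of reads were higher in insoluble, and over all 236 sites r between both log2 ratios was 0.448, with points that share the same libraries.

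**Figure D4:**
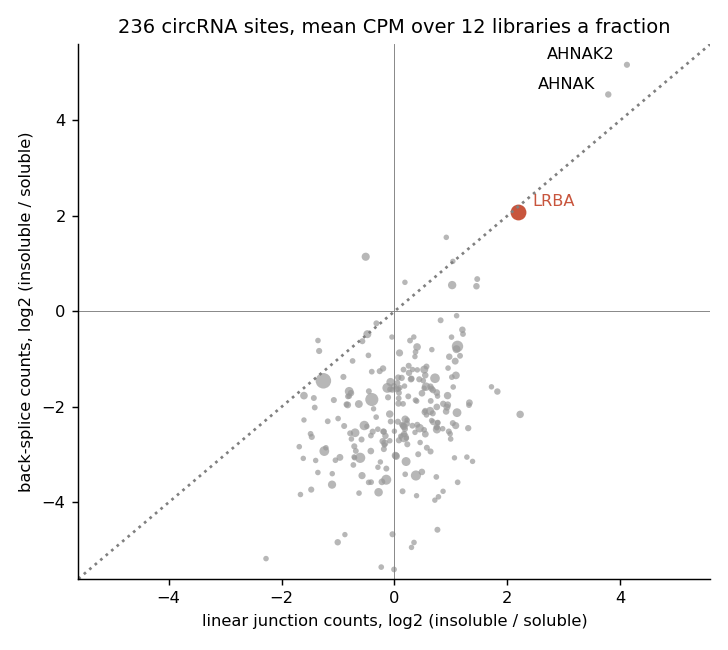
Log2 ratio of insoluble to soluble CPM of the back-splice reads against that of the linear reads for 236 sites, with point area by back-splice counts and a dotted line where both are equal. LRBA, the site with the most counts (568), lies near the line at 2.19 and 2.09, whereas 226 sites lie below 0 on the back-splice axis.

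Mean intron counts of LRBA were also higher in insoluble than in soluble libraries under every treatment. In Ctrl they were 49.3, 35.2 and 54.7 CPM in soluble and 117, 106 and 90.4 CPM in insoluble libraries. In NaAsO2 they were 38.1, 61.7 and 37.5 CPM in soluble and 85.4, 51.2 and 53.0 CPM in insoluble libraries. The fractions overlapped here, unlike for exons, since soluble replicate 2 lay above insoluble replicates 2 and 3. In RK-33 they were 49.97, 34.6 and 22.1 CPM in soluble and 104, 107 and 101 CPM in insoluble libraries. In Combo they were 41.4, 47.9 and 90.7 CPM in soluble and 94.5, 96.7 and 59.3 CPM in insoluble libraries, with an overlap through soluble replicate 3.

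Between libraries of the same replicate number, the intron level in insoluble was 2.34 ± 0.681 times that in soluble in Ctrl, 1.49 ± 0.710 times in NaAsO2, 3.25 ± 1.25 times in RK-33 and 1.65 ± 0.875 times in Combo (SD, n = 3). Introns made up 39.8% to 63.2% of LRBA counts in soluble libraries (mean 50.0% ± 8.45, SD, n = 12) and 15.95% to 44.3% in insoluble libraries (31.5% ± 7.78, n = 12). Over all genes the order was the other way, at 13.3% to 28.4% of counts in soluble and 17.2% to 37.5% in insoluble libraries.

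Per length, exons far exceeded introns in both fractions. Exon CPM per kilobase averaged 2.74 in soluble and 11.8 in insoluble libraries, and intron CPM per kilobase 0.0643 and 0.122. The ratio of exon to intron level per kilobase was 25.3 to 66.0 in soluble and 54.8 to 229 in insoluble libraries. Nuclear RNAs (MALAT1, NEAT1, KCNQ1OT1, MEG3) summed to 4945 to 13208 CPM in soluble and 1486 to 5889 CPM in insoluble libraries, a sum carried by MALAT1, with means of 8068 CPM in soluble and 2864 CPM in insoluble libraries. NEAT1 (391 and 1123 CPM) and KCNQ1OT1 (18.8 and 51.2 CPM) had the opposite order and MEG3 was at or near 0 in all. Their part in the intron counts was not tested. Within the 12 insoluble libraries r between LRBA exon and intron counts, as log2(CPM + 0.1), was 0.026, and it was -0.70 in the 11 without NaAsO2 insoluble replicate 3.

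NaAsO2 raised LRBA exon counts in the soluble fraction. The level was 50.8 ± 5.66 CPM in NaAsO2 and 34.2 ± 2.03 CPM in Ctrl (SD, n = 3). The log2 fold change was 0.67 ± 0.199 (SE; 1.59-fold), with an adjusted p of 0.0286 in edgeR's quasi-likelihood test over 17666 genes, of which 13.3% were called in this comparison. Under TMM, relative log expression and exon plus intron library size alike, this change stood at percentile 96.6 of all genes, whose median was 0.03, 0.05 and -0.07. The call was lost when library size was taken from exon plus intron counts (0.57, adjusted p 0.12) and when any of the 6 libraries compared was left out (0.55 to 0.70, adjusted p 0.0613 to 0.153). Without NaAsO2 insoluble replicate 3, which is outside the comparison but shares the estimate of spread, the value was 0.65 and the adjusted p 0.000325.

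Addition of NaAsO2 to RK-33 raised the soluble level too, in a comparison added after the data were seen. Combo had 61.5 ± 8.18 CPM and RK-33 had 37.4 ± 8.66 CPM. The log2 fold change was 0.79 ± 0.197 (SE; 1.73-fold, adjusted p 0.0228), where 3.65% of genes were called. This call was lost under exon plus intron library size (0.72, adjusted p 0.096) and when any compared library other than RK-33 soluble replicate 1 was left out (0.63 to 0.89 over the 6, adjusted p 0.0353 to 0.15). All 6 soluble libraries with NaAsO2 lay at 44.7 to 69.0 CPM (median 54.3) and all 6 without it at 27.4 to 42.9 CPM (median 35.3). The share of all genes that separate in this way was not counted, so this is a description only.

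RK-33 moved LRBA exon counts by less than could be called. RK-33 against Ctrl gave a log2 fold change of 0.15 ± 0.198 (SE) in soluble (adjusted p 0.751, 5.33% of genes called) and 0.17 ± 0.191 in insoluble (adjusted p 0.638, 13.9% called). Combo against NaAsO2 gave 0.27 ± 0.195 in soluble (adjusted p 0.433, 6.46% called) and 0.25 ± 0.191 in insoluble (adjusted p 0.387, 13.8% called), where the value turned to -0.0747 (adjusted p 0.757) without NaAsO2 insoluble replicate 3. These SEs bound the precision, and a p that misses the threshold does not show that the groups were alike.

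In the insoluble fraction the effect of NaAsO2 depended on 1 library. With all libraries, NaAsO2 had 204 ± 92.1 CPM and Ctrl 168 ± 23.03 CPM (SD, n = 3), and differed by 0.07 ± 0.191 on the log2 scale (SE; adjusted p 0.78), where 43.1% of genes were called. Without NaAsO2 insoluble replicate 3 the level was 257 ± 17.98 CPM (n = 2) and the log2 fold change 0.41 ± 0.129 (adjusted p 0.0115, 42.6% of genes called). Combo against RK-33 in insoluble gave 0.15 ± 0.191 (adjusted p 0.725, 7.12% of genes called).

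The change of the fraction effect was tested as an interaction, which asks whether the insoluble to soluble ratio differed between treatments. From Ctrl to NaAsO2 it changed by -0.60 ± 0.276 on the log2 scale (SE; adjusted p 0.124, 22.3% of genes called), and without NaAsO2 insoluble replicate 3 by -0.24 (adjusted p 0.342). Without NaAsO2 insoluble replicate 2 instead, it was called at -0.77 (adjusted p 0.0459). That fit kept only replicates 1 and 3 of the group, the last being the library that stood apart. From NaAsO2 to Combo it changed by -0.03 ± 0.273 (adjusted p 0.977, 0.357% of genes called), and by -0.38 (adjusted p 0.344) without NaAsO2 insoluble replicate 3. In no treatment comparison did LRBA reach a log2 fold change of 1.

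LRBA intron counts passed no treatment test. The largest change in a fraction was 0.42 ± 0.177 (SE) for NaAsO2 against Ctrl in soluble (adjusted p 0.173, 5.27% of genes called). In insoluble it was -0.11 ± 0.173 (adjusted p 0.667, 31.3% called). RK-33 against Ctrl gave -0.22 (adjusted p 0.689, 1.07% called) in soluble and -0.01 (adjusted p 0.993, 2.80% called) in insoluble. Combo against NaAsO2 gave 0.01 (adjusted p 0.983, 14.4% called) and 0.14 (adjusted p 0.58, 26.6% called). The fraction effect changed by -0.53 ± 0.247 from Ctrl to NaAsO2 (adjusted p 0.195, 1.86% called) and by 0.13 ± 0.246 from NaAsO2 to Combo (adjusted p 0.868), where edgeR called 0% of genes (1445 at an unadjusted p under 0.05, and 1 called by DESeq2). The insoluble intron values without NaAsO2 insoluble replicate 3 were 0.0135 for NaAsO2 against Ctrl (adjusted p 0.967) and 0.0246 for Combo against NaAsO2 (adjusted p 0.939), and the fraction effect changed by -0.41 (adjusted p 0.358) and 0.0161 (adjusted p 0.997).

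The LRBA circle, with 0 to 59 back-splice counts per library, changed with no treatment beyond its error. NaAsO2 against Ctrl shifted the back-splice by 0.60 ± 0.739 on the log2 scale (SE; adjusted p 0.995) in soluble and -0.10 ± 0.561 (adjusted p 0.997) in insoluble, or 0.46 (adjusted p 0.705) without NaAsO2 insoluble replicate 3. RK-33 against Ctrl gave -0.39 ± 0.788 and 0.13 ± 0.558, and Combo against NaAsO2 gave -0.04 ± 0.683 and -0.06 ± 0.556. The RK-33 value in soluble was -1.02 without RK-33 replicate 1 and -0.0410 without RK-33 replicate 3. The fraction effect changed by -0.71 ± 0.925 and -0.02 ± 0.899. With NaAsO2 insoluble replicate 3 left out, Combo against NaAsO2 in insoluble was at -0.62 (adjusted p 0.724) and the fraction effect changed by -0.15 (adjusted p 0.986) and -0.58 (adjusted p 0.855). In all 8 comparisons edgeR called 0% of the 237 sites, with 8 to 23 sites at an unadjusted p under 0.05, and DESeq2 called 0 as well, with 3 to 12 such sites. At these counts a change of the size seen in the exon counts was not detectable.

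Linear reads at the LRBA site gave 0.41 ± 0.640 (SE; adjusted p 0.839, 2.04% of 392 sites called) for NaAsO2 against Ctrl in soluble and 0.14 ± 0.429 (adjusted p 0.859, 27.6% called) in insoluble. Without NaAsO2 insoluble replicate 3 the insoluble value was 0.63 ± 0.196 (adjusted p 0.00725, 53.3% of sites called). RK-33 against Ctrl gave -0.04 (adjusted p 0.992) in soluble, where 0% were called (34 at an unadjusted p under 0.05, and 3 called by DESeq2), and 0.29 (adjusted p 0.742, 7.14% called) in insoluble. Combo against NaAsO2 gave 0.43 (adjusted p 0.887) in soluble, where 0% were called (28 at an unadjusted p under 0.05, and 0 called by DESeq2), and 0.24 (adjusted p 0.827, 4.08% called) in insoluble. The fraction effect changed by -0.27 (adjusted p 0.868, 10.2% called) and -0.19 (adjusted p 0.975, 0.255% called). Combo against NaAsO2 in insoluble without NaAsO2 insoluble replicate 3 was at -0.26 (adjusted p 0.368) and the fraction effect changed by 0.22 (adjusted p 0.734) and -0.68 (adjusted p 0.336).

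The other 8 BEACH domain genes give the host's family as context, and all were tested. In insoluble against soluble, 6 of 8 were higher in Ctrl, 6 in NaAsO2, 7 in RK-33 and 6 in Combo, where 24.4%, 27.9%, 29.2% and 24.1% of all genes were higher, and 0 of 8 were lower, where 26.6% to 30.4% of all genes were. The count in NaAsO2 was also 6 of 8 without its insoluble replicate 3. Their median log2 fold change was 1.51, 1.32, 1.66 and 1.1 in that order, where the median of all genes was -0.03, 0.03, -0.01 and 0.00. The 6 genes higher under every treatment were NBEA (neurobeachin, of the synapse), NBEAL1, NBEAL2 (needed for platelet granules), LYST (lysosomal trafficking), WDFY3 (an autophagy adaptor) and WDR81 (endosome maturation). NSMAF, which couples a tumour necrosis factor receptor to sphingomyelinase, was called only in RK-33 (0.50, adjusted p 0.00643), and WDFY4, a gene of dendritic cells with 0.415 to 1.21 CPM here, under no treatment.

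Per kilobase of exon, the place of LRBA in the family depended on the fraction. In soluble libraries its mean of 2.74 CPM per kilobase came after NSMAF with 5.87, WDFY3 with 5.84 and NBEAL2 with 2.96. In insoluble libraries its 11.8 came after WDFY3 with 15.7 and before WDR81 with 6.89. WDFY3 averaged 10.8 CPM per kilobase over all libraries and LRBA 7.27, followed by NSMAF with 5.86, NBEAL2 with 4.90, WDR81 with 4.68, NBEAL1 with 2.61, LYST with 1.18, NBEA with 0.509 and WDFY4 with 0.0571. The spread over libraries was wide, since LRBA alone ranged from 27.4 to 270 CPM. The exon length used for LRBA was 16757 bases, more than the 10148 of its MANE transcript, and the order of genes depends on such lengths.

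With all libraries, treatments called 4 changes among the 8 genes, all in comparisons of NaAsO2 with Ctrl. They were 1 of 8 in soluble, 2 of 8 in insoluble and 1 of 8 for the fraction effect, where 13.3%, 43.1% and 22.3% of all genes were called. The total of 4 became 15 over the treatment comparisons without NaAsO2 insoluble replicate 3, 10 without Combo insoluble replicate 3, 8 without NaAsO2 insoluble replicate 1 and 7 without Ctrl insoluble replicate 3. Calls over all genes moved too, so these totals are not read as a family result. Without NaAsO2 insoluble replicate 3, 29.3% of all genes were called for NaAsO2 against Ctrl in soluble and 42.6% in insoluble. RK-33 against Ctrl called 15.2% and 25.9%, Combo against NaAsO2 17.6% and 12.7%, and the fraction effects 28.7% and 1.56%. Combo against NaAsO2 in insoluble called 4485 of 17666 genes without Combo insoluble replicate 3, and 2435 with all libraries. NBEAL2 rose in soluble (log2 fold change 0.74, adjusted p 0.0112) and in insoluble (0.74, adjusted p 0.00267). WDR81 rose in insoluble (0.83, adjusted p 0.00107), and its fraction effect increased from Ctrl to NaAsO2. When NaAsO2 insoluble replicate 3 was left out, NBEAL2 had 0.72 (adjusted p 0.000295) in soluble and 0.51 (adjusted p 0.00447) in insoluble, and WDR81 had 0.64 (adjusted p 0.00106) in insoluble. In that setting the fraction effect of WDR81 was also called from NaAsO2 to Combo, at -0.96 (adjusted p 0.015), where 1.56% of all genes were called. WDR81 was at 16.6, 18.9 and 21.1 CPM in Ctrl soluble and 13.8, 12.2 and 14.1 CPM in NaAsO2 soluble libraries. In insoluble it was at 35.6, 36.5 and 46.9 CPM in Ctrl and 61.8, 80.1 and 89.5 CPM in NaAsO2. In soluble, where LRBA rose with NaAsO2, WDR81 had a log2 fold change of -0.40 (adjusted p 0.175, or -0.42 and 0.0488 without that library), and the difference between both genes was not tested.

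**Figure D5:**
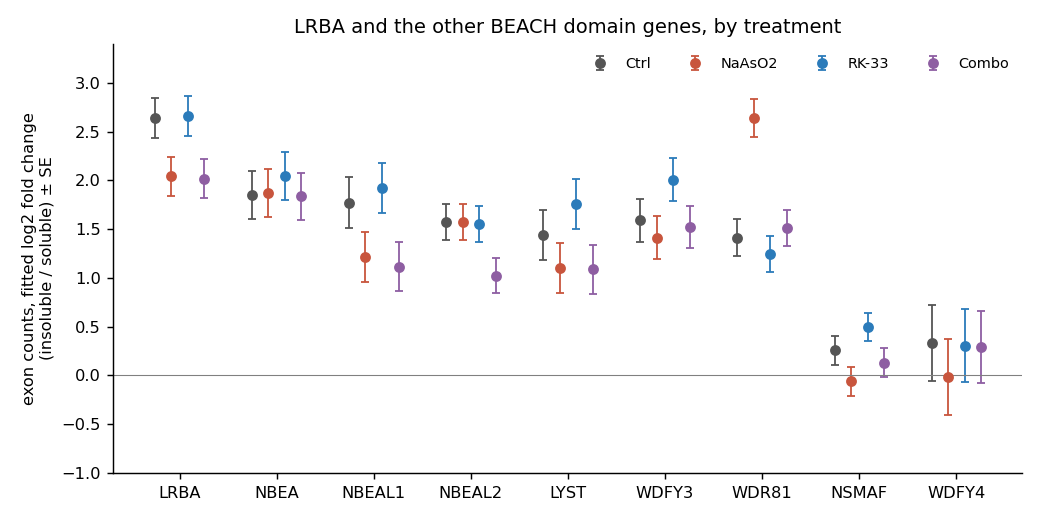
Fitted log2 fold change of insoluble over soluble exon counts, with SE bars, for LRBA and 8 other BEACH domain genes under each of the 4 treatments. LRBA lies at 2.02 to 2.66, and NSMAF and WDFY4 lie nearest 0.

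Likeness to LRBA across libraries was measured by Pearson's r of log2(CPM + 0.1) over libraries of both fractions. Among 9420 genes averaging 10 CPM or more, the exon profiles most like LRBA were those of PRKDC (a DNA-dependent protein kinase subunit; r 0.992 over 24 libraries), UTP20 (of ribosome assembly; 0.991) and ZNF106 (a zinc finger protein; 0.990). Their log2 ratios of insoluble to soluble over the treatments were 2.52 to 3.01, 1.57 to 2.12 and 1.42 to 1.59, in that order. The r values include the gap between fractions by which LRBA was chosen, and were the highest of 9420. Likeness within a fraction was not measured. Among 83 back-splice sites with at least 48 counts, the closest were in TENM2 (r 0.56, or 0.42 without NaAsO2 insoluble replicate 3), LMTK2 (0.37 and 0.18) and TCF20 (0.37 and 0.38), with 124, 56 and 56 counts. These sites had fewer counts than LRBA, and the r values carry that counting error. They did not all share its higher level in insoluble. The log2 ratio of insoluble to soluble was 0.13 to 0.74 over the treatments for TENM2. For LMTK2 it was -0.47 in Ctrl, -1.18 in NaAsO2, 1.93 in RK-33 and -0.80 in Combo. For TCF20 it was 0.43 in Ctrl, -1.62 in NaAsO2 and 0.75 in RK-33, with no finite value in Combo.

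Genes that overlap LRBA held few reads. Counting used no strand, so reads of opposite-strand genes cannot be told from those of LRBA where exons overlap. The 5 overlapping genes counted 135 reads in ENSG00000249690, 46 in MAB21L2, 35 in ENSG00000248521, 22 in ZBTB8OSP1 and 3 in RNA5SP168 over all 24 libraries, where LRBA had 47603. CTLA4, the known cargo of LRBA, had 0 to 13 counts per library and 108 in all.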

How the data were processed

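Total RNA of soluble and insoluble U2OS cytoplasm was depleted of ribosomal RNA and sequenced as read pairs. The deposited values are counts: the authors aligned reads with STAR (2.7.2b) to GRCh38.p13, converted files with SAMtools (1.2), counted exons and introns with featureCounts of Subread without strand, with gene spans less all merged exons as introns, and found back-splices from chimeric reads with DCC, which also gave the linear counts at the same sites. Back-splice reads need a chimeric alignment across 1 joint, so their counts are low. Everything else was computed from the counts. The members, gene lists and tests were chosen with earlier results of these data known.

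CPM used exon plus intron counts as library size. In R (4.3.3), edgeR (4.0.16) quasi-likelihood tests were fitted on all 24 libraries with 1 coefficient per group. Exon and intron tables were tested over genes averaging 1 CPM or more, with TMM scaling, and sites over those with at least 24 counts, with the exon plus intron library size. P-values were Benjamini-Hochberg adjusted over each table, with a threshold of 0.05. Folds between fractions used libraries of the same replicate number, as the study paired them. Named genes were LRBA, genes overlapping it, the other BEACH domain genes, CTLA4, cell type markers, neighbours in the order of sites, and the 3 genes and sites whose log2(CPM + 0.1) or back-splice profile was most like LRBA. Alternatives were other scalings, no filter, DESeq2 (1.42.0), the likelihood ratio test, a replicate block, fits of the compared groups alone, removed libraries and a removed GC trend. For the fraction effects the block was the lysate, taken as the libraries of the same treatment and replicate number. The tests were also run on simulated counts with a single spread and no outlying library or GC trend. The back-splice counts were simulated also at a greater depth than measured. Such runs do not show how the tests behave with libraries such as NaAsO2 insoluble replicate 3. Sequences and gene models were read from the GRCh38 reference with GENCODE 44. Depth is given with the results.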

Additional observations from a re-analysis of the deposited data

Results flagged for a closer look

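In WDR81, a BEACH domain gene of endosome maturation, the effect of NaAsO2 differed between the fractions by the interaction term of edgeR's quasi-likelihood test. The insoluble to soluble log2 fold change was higher by 1.23 ± 0.266 (SE) in NaAsO2 than in Ctrl, with an adjusted p of 0.00195. In this comparison 22.3% of all genes were called, and 1 of the 8 other BEACH domain genes, so the call is not particular to WDR81. All 3 insoluble NaAsO2 libraries, at 61.8 to 89.5 CPM, lay above the Ctrl ones, at 35.6 to 46.9 CPM, and all 3 soluble ones, at 12.2 to 14.1 CPM, lay below the Ctrl ones, at 16.6 to 21.1 CPM. How many other genes separate in this way was not counted. Without NaAsO2 insoluble replicate 3 the difference was 1.05 (adjusted p 0.00046, 28.7% of all genes called). In that same setting the insoluble to soluble log2 fold change was lower by 0.96 in Combo than in NaAsO2 (adjusted p 0.015, 1.56% of all genes called). That change was not called with all libraries.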

How the results depend on the processing

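With library size from exon plus intron counts, the soluble exon log2 fold change fell to 0.57 for NaAsO2 against Ctrl (adjusted p 0.12) and 0.72 for Combo against RK-33 (adjusted p 0.096), both no longer called, and the intron value for NaAsO2 against Ctrl in soluble turned to -0.0185, where the median of all genes moved from 0.01 to -0.43. Fits of the compared groups alone called Combo against NaAsO2 in soluble exons (0.32, adjusted p 0.00688) and NaAsO2 against Ctrl in soluble introns (0.42, adjusted p 0.0163). Without replicate 3 of both NaAsO2 and Combo insoluble, chosen after seeing the data, NaAsO2 against Ctrl in insoluble was called for exons (0.41, adjusted p 0.00406) and linear reads (0.63, adjusted p 0.000148) and changed sign for introns (0.0139) and the back-splice (0.46), as did Combo against NaAsO2 for exons (-0.0329) and linear reads (-0.0715) and the linear change of the fraction effect from Ctrl to NaAsO2 (0.21). With each table's own TMM scaling, the sign changed for the back-splice in RK-33 against Ctrl in insoluble (-0.10) and Combo against NaAsO2 in soluble (0.38), and for linear reads in NaAsO2 against Ctrl in insoluble (-0.0512). The back-splice fold between fractions in Ctrl moved to 6.26 with TMM of the exon table, and the ratio of circular share in RK-33 to 1.89 when taken per exon count. The 4 treatment calls of the other BEACH domain genes became 7 with exon plus intron library size, 7 without the filter, 7 by DESeq2, 12 in fits of the compared groups alone, 9 with the GC trend removed and 20 without both replicate 3 libraries. Over all genes, calls for NaAsO2 against Ctrl in soluble went from 2351 of 17666 to 2195 with exon plus intron library size. They were 1577 of 47988 without the filter, 2954 by DESeq2, 6973 in fits of the compared groups alone and 4180 with the GC trend removed. In insoluble, 8502 of 17666 were called without both replicate 3 libraries and 7606 with all libraries. The cause of these moves was not tested.

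Leaving out 1 replicate, the soluble exon value ranged from 0.55 to 0.70 for NaAsO2 against Ctrl and from 0.63 to 0.89 for Combo against RK-33. In insoluble exons it ranged from -0.10 to 0.41 for NaAsO2 against Ctrl and from -0.0747 to 0.423 for Combo against NaAsO2. The exon fraction effect ranged from -0.77 to -0.24 (NaAsO2 minus Ctrl) and from -0.38 to 0.15 (Combo minus NaAsO2). For introns the ranges were -0.241 to 0.0135 (NaAsO2 against Ctrl, insoluble), -0.0413 to 0.0102 (RK-33 against Ctrl, insoluble) and -0.23 to 0.14 (Combo against NaAsO2, soluble). For the back-splice they were -1.02 to -0.0410 (RK-33 against Ctrl, soluble), -0.52 to 0.46 (NaAsO2 against Ctrl, insoluble), -0.34 to 0.22 and -0.62 to 0.36 (Combo against NaAsO2, soluble and insoluble) and -0.58 to 0.40 (fraction effect, Combo minus NaAsO2). For linear reads they were -0.21 to 0.63 (NaAsO2 against Ctrl, insoluble), -0.22 to 0.23 (RK-33 against Ctrl, soluble), -0.26 to 0.59 (Combo against NaAsO2, insoluble), -0.62 to 0.22 and -0.68 to 0.16 (both fraction effects). The ratio of circular share ranged from 0.933 to 1.15 in Ctrl and from 0.369 to 1.14 in NaAsO2. The treatment calls of the BEACH domain genes ranged from 3 to 15, and calls over all genes moved as well.

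The replicate numbers were not shown to pair the libraries, since deviations correlated above 0.1 in 3 of 12 pairs of fractions (-0.315 to 0.337) and 4 of 18 pairs of treatments (-0.355 to 0.82). The highest were those of Combo and NaAsO2 insoluble, at 0.665, 0.676 and 0.82 for replicates 1, 2 and 3. The part of replicate 3 in these values was not tested. With the replicate block, 0 calls of LRBA changed, and the exon value of NaAsO2 against Ctrl in soluble was 0.67 (adjusted p 0.0188). For the fraction effects the block was the lysate. Under it the exon fraction effect of NaAsO2 minus Ctrl was -0.655 ± 0.237 (SE; adjusted p 0.0677 in the quasi-likelihood test). The sign changed under a block for the exon fraction effect of Combo minus NaAsO2 (0.0449), for the back-splice in Combo against NaAsO2 in insoluble (0.00707) and its fraction effect of Combo minus NaAsO2 (0.46), and for the linear one (0.10).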
